A study of Mus musculus with 17 samples.

Results

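The C2C12 line carrying the fusion construct SRF-FOXO1 was compared, across all genes, with the C2C12 line carrying the empty vector pMSCV. These are 6 of the 17 libraries of the series, 3 of SRF-FOXO1 and 3 of pMSCV, taken by the construct and replicate number in their titles. The other lines carry SRF, SRF-ICA1L, SRF-RELA (3 libraries each) or SRF-PDGFRB (2 libraries) and served to estimate the spread between libraries and for a comparison near the end. C2C12 is an established mouse myoblast line. Both groups were grown in the same medium, DMEM with 10% fetal bovine serum, which keeps myoblasts proliferating, and no agent, genotype or time distinguishes them beyond the construct. Nothing in the labels says whether the 3 libraries of a line are separate cultures, or whether a line is 1 clone or a pool, so p-values measure only the spread between these libraries, which may be technical.

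SRF (serum response factor) binds DNA at CArG boxes and drives immediate-early growth genes through ternary complex factors and actin cytoskeletal and muscle contractile genes through myocardin-related cofactors. FOXO1 is a forkhead transcription factor that insulin and growth factor signalling keep out of the nucleus, and its targets in muscle include genes of atrophy and stress resistance. Fusions that join SRF to a partner such as FOXO1 occur in myoid tumours of soft tissue, the setting that the series' title names. In myoblasts, commitment and differentiation run through MyoD family factors, which switch on fusion, acetylcholine receptor and sarcomere genes.

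Total counts lay between 21047216 and 22426211 in the 6 libraries, so counting error was small for all but weakly expressed genes. Levels are given as CPM (counts scaled to a common library size) after scaling for library composition, and since they are not divided by gene length they are compared between libraries, not between genes. The libraries of a line differed from each other by far more than the counting error alone gives (a chi-square of 70.9 to 200 for each degree of freedom). On the first principal component of the 6 libraries, which held 44.6% of the variance, pMSCV replicates 1 and 3 stood at -66.3 and -69.1. SRF-FOXO1 replicates 1, 2 and 3 stood at 39.2, 16.5 and 80.7. pMSCV replicate 2 lay between them at -0.99 and apart from all others on the second component (78.6). The myoblast markers Myod1, Myf5, Des, Cdh15, Itga7, Vcam1 and Ncam1 were detected in all 6 libraries, and Msc in 5. Summed levels of markers of other cell types overlapped between the lines. Of the single markers 7 did not, and neither did 3462 of all 15062 genes (23.0%). The summed level of 13 of 20 fibroblast and tendon markers found in the table was 423 to 984 CPM in pMSCV and 670 to 1005 CPM in SRF-FOXO1. That of 9 of 18 pericyte and vascular markers was 153 to 492 CPM against 191 to 311 CPM, and that of 8 of 16 blood and epithelial markers 42.4 to 91.4 CPM against 43.6 to 53.3 CPM. The 11 of 20 adipocyte, cartilage and bone markers summed to 2461 to 3812 CPM in pMSCV and 1388 to 3097 CPM in SRF-FOXO1. Most of that sum was Spp1, at 3198, 3482 and 2208 CPM in pMSCV and 1188, 1715 and 2889 CPM in SRF-FOXO1. Such sums mainly follow the strongest genes of a list and say little about its weak members. The 7 markers with groups apart were Cd34, Pdgfra, Cd14 and Lyz2, higher in SRF-FOXO1 with log2 fold changes of 1.13, 1.44, 0.42 and 3.11 (adjusted p 0.187, 0.234, 0.293 and 0.208), and Has1, Krt19 and Cdh5, lower with -2.84, -2.61 and -5.12 (adjusted p 0.0501, 0.138 and 0.0798). Lyz2, of myeloid cells, was at 0.74, 1.54 and 0.09 CPM in pMSCV and 8.5, 5.25 and 6.87 CPM in SRF-FOXO1. The part of other cells in the results was not tested. In bulk RNA, fewer cells of a kind and less RNA per cell cannot be told apart.

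Neither gene of the construct stood out among the mouse genes. Srf was at 66.6, 93.8 and 83.4 CPM in pMSCV replicates 1, 2 and 3 and at 105, 84.1 and 71.8 CPM in SRF-FOXO1 replicates 1, 2 and 3. Foxo1 was at 16.5, 28.7 and 17.5 CPM in pMSCV and 22.8, 33.0 and 38.5 CPM in SRF-FOXO1. Both groups overlapped for both genes, with log2 fold changes of 0.10 (SE 0.34, adjusted p = 0.894) for Srf and 0.59 (SE 0.28, adjusted p = 0.243) for Foxo1 by the quasi-likelihood test of edgeR, adjusted by Benjamini-Hochberg like every adjusted p given here. The species and sequence of the construct are not given in the sources used here, nor is how far its reads count towards the mouse genes, so these counts do not check the label. Against the line with SRF itself, Srf was the 1 gene called and was lower in SRF-FOXO1. Whether either construct adds to the Srf count was not tested. Among the other forkhead genes of the family, Foxo3 and Foxo4 had log2 fold changes of 0.15 and -0.27, and Foxo6, at 0.96 to 5.86 CPM, one of -1.36 (adjusted p = 0.162); none was called.

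Of 15062 genes tested, 107 (0.710%) were called at an adjusted p under 0.05 between SRF-FOXO1 and pMSCV, 54 higher (0.359%) and 53 lower (0.352%) in SRF-FOXO1. Their adjusted p lay between 0.0336 and 0.0483, and 78 of them differed at least 2-fold (41 higher, 37 lower). All 107 had 3 and 3 libraries that did not overlap, which 3462 genes (23.0%) did. Without adjustment, 1557 genes (10.3%) passed p under 0.05 as higher and 1594 (10.6%) as lower, so many genes sat short of the adjusted threshold. The count changed when single libraries were left out. Without pMSCV replicate 1 or 3, or SRF-FOXO1 replicate 1 or 3, edgeR called 0 genes (2131 to 2528 at an unadjusted p under 0.05). Leaving out pMSCV replicate 2 gave 355 and leaving out SRF-FOXO1 replicate 2 gave 195. How far this reflects the smaller number of libraries was not tested. Every one of the 107 kept its direction in each of these fits. For groups that do not overlap this is nearly fixed beforehand, so it adds no support. SRF-FOXO1 replicate 3 was the highest of its line for 40 of the 54 higher genes and the lowest for 41 of the 53 lower genes. Across genes, its deviations from its line's mean correlated with those of replicate 3 of SRF-ICA1L (0.50), SRF-RELA (0.45) and SRF (0.33). With pMSCV replicate 3 the correlation was 0.01. From the same 15062 genes DESeq2 called 1363 (662 higher, 701 lower). A fit with a block for replicate number over 17 libraries called 1021 (519 higher, 502 lower). The 6 libraries fitted alone gave 32. Counts of list members called by DESeq2 or the block fit, given below, stand beside these totals.

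**Figure D1:**
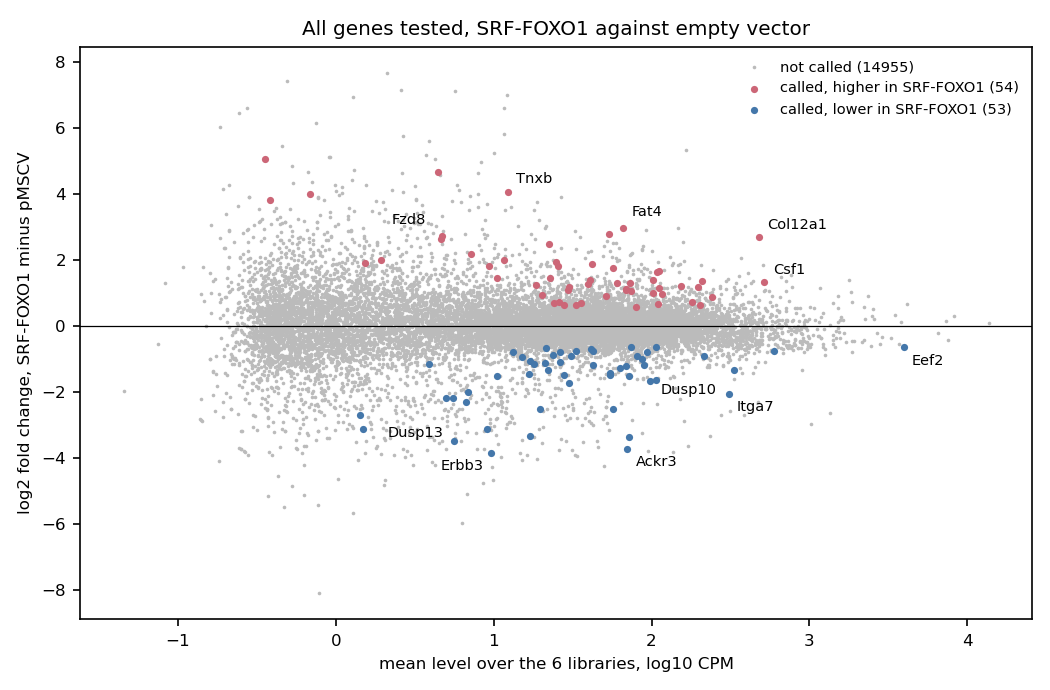
Each point is 1 of the 15062 genes tested, by its mean level over the 6 libraries (log10 CPM) and its log2 fold change (SRF-FOXO1 minus pMSCV); red and blue points are the 54 higher and 53 lower genes called. Called genes lie on both sides of 0 from weakly to strongly expressed genes, and many uncalled genes lie as far from 0.

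The 5 lists of muscle genes held 1 called gene. Itga7, the integrin alpha chain through which muscle cells bind laminin (chr10:128933818-128958282, GRCm38), was at 579, 434 and 480 CPM in pMSCV and 126, 135 and 95.6 CPM in SRF-FOXO1. Its log2 fold change was -2.06 with an SE of 0.36 (adjusted p = 0.0336), and every SRF-FOXO1 library lay below every pMSCV library. Cdh15, M-cadherin, which holds myoblasts together, was at 347, 206 and 392 CPM in pMSCV and 30.4, 22.3 and 22.9 CPM in SRF-FOXO1. Its log2 fold change was -3.64 (SE 0.85) with an adjusted p of 0.0531, so it was not called although the groups were far apart. Of 23 genes for myoblast fusion and adhesion in the table, Itga7 alone was called, and the list's median of -0.06 stood near that of all genes (0.00). Its members ran both ways: the integrin alpha chain Itga4 and the fusion protein Mymk had log2 fold changes of -3.49 and -2.67. Cdh11, a cadherin of mesenchymal cells, was at 0.37 to 2.38 CPM in pMSCV, at 2.96 and 2.53 CPM in SRF-FOXO1 replicates 1 and 2, and at 45.0 CPM in replicate 3.

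Acetylcholine receptor genes had groups apart without being called. Chrnd, the delta subunit, was at 148, 74.2 and 60.9 CPM in pMSCV and 10.7, 2.35 and 1.92 CPM in SRF-FOXO1. Chrna1, the subunit that binds acetylcholine, was at 302, 143 and 402 CPM against 41.6, 37.1 and 36.2 CPM. Chrnb1 was at 119, 40.1 and 117 CPM against 15.7, 10.6 and 9.37 CPM. No SRF-FOXO1 library reached a pMSCV library for any of them, and the log2 fold changes were -4.24, -2.88 and -2.95 with adjusted p of 0.0508, 0.0755 and 0.0563. Rapsn, which clusters the receptor, had a log2 fold change of -1.48 (adjusted p = 0.0514), Dok7 and Musk, which trigger clustering, -3.71 and -1.98, and the embryonic subunit Chrng -3.25. These 7 genes were the members of the 14 with an unadjusted p under 0.05, all lower. None of the 14 was called by edgeR, while DESeq2 called 6 and the fit with a replicate block over 17 libraries 4, all lower. Those fits called 1363 and 1021 of all 15062 genes. The list's median was -0.82, and it stayed between -0.98 and -0.76 with any 1 of the 6 libraries left out.

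Sarcomere genes lay lower almost throughout. Of 32 in the table, 30 had a negative log2 fold change, 18 with an unadjusted p under 0.05. None was called by edgeR, while DESeq2 called 8 and the fit with a replicate block over 17 libraries 3, all lower. Over all 15062 genes these 2 fits called 1363 and 1021. Their median was -2.45 (-2.34 with genes at the counting floor set to their bound), against 0.00 for all genes, and lay between -2.66 and -1.89 with any 1 library left out. Xirp1, an actin-binding repeat protein of muscle, was at 38.7, 14.6 and 32.6 CPM in pMSCV and 2.22, 1.22 and 1.65 CPM in SRF-FOXO1. Titin (Ttn), the giant spring of the sarcomere, was at 108, 50.1 and 68.4 CPM against 15.5, 5.39 and 7.18 CPM. The embryonic myosin heavy chain Myh3 was at 86.1, 41.0 and 74.7 CPM against 10.5, 0.94 and 6.11 CPM. For all 3 the groups did not overlap, and the log2 fold changes were -4.07, -3.01 and -3.52 with adjusted p of 0.0531, 0.113 and 0.128. The other 2 members, the Z-disc protein Ldb3 and the filament cap Tmod4, had log2 fold changes of 0.81 and 0.06 (adjusted p 0.505 and 0.959).

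Genes of excitation-contraction coupling followed with a median of -1.18 over 22 genes, 19 of them negative and 10 with an unadjusted p under 0.05. None was called by edgeR, 7 were by DESeq2 (1363 of all 15062 genes) and 5 with a replicate block over 17 libraries (1021 of all), all lower. The median lay between -1.75 (without SRF-FOXO1 replicate 3) and -1.06 with any 1 library left out. Stac3, an adaptor of the calcium channel, was at 9.35 to 10.7 CPM in pMSCV and 1.36 to 1.87 CPM in SRF-FOXO1 (log2 fold change -2.58, adjusted p = 0.0555). Bin1, which shapes the transverse tubule membrane, was at 314, 331 and 298 CPM against 172, 164 and 124 CPM (log2 fold change -1.04, adjusted p = 0.0501). Both genes had groups that did not overlap. The calcium release channel Ryr1 and the pump Atp2a1 had log2 fold changes of -2.78 and -3.24 (adjusted p 0.174 and 0.125).

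Among 15 myogenic regulators, 5 had an unadjusted p under 0.05, all lower. None was called by edgeR, 4 were by DESeq2 (1363 of all 15062 genes) and 1 with a replicate block over 17 libraries (1021 of all). Myod1, the myogenic determination factor, was at 61.1, 44.9 and 107 CPM in pMSCV and 11.8, 6.66 and 10.4 CPM in SRF-FOXO1. Myf5, its relative in muscle precursors, was at 19.9, 43.1 and 33.7 CPM against 11.3, 6.75 and 5.22 CPM. Mef2c, a partner factor of differentiation, was at 29.2, 15.7 and 19.2 CPM against 5.06, 1.27 and 1.25 CPM. All 3 genes had groups apart, and their log2 fold changes were -2.88, -2.05 and -3.08 (adjusted p 0.106, 0.0789 and 0.0853). Myog, which marks differentiating myocytes, had -2.52 (adjusted p = 0.283). The list's median of -0.96 was -0.17 without pMSCV replicate 2.

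**Figure D2:**
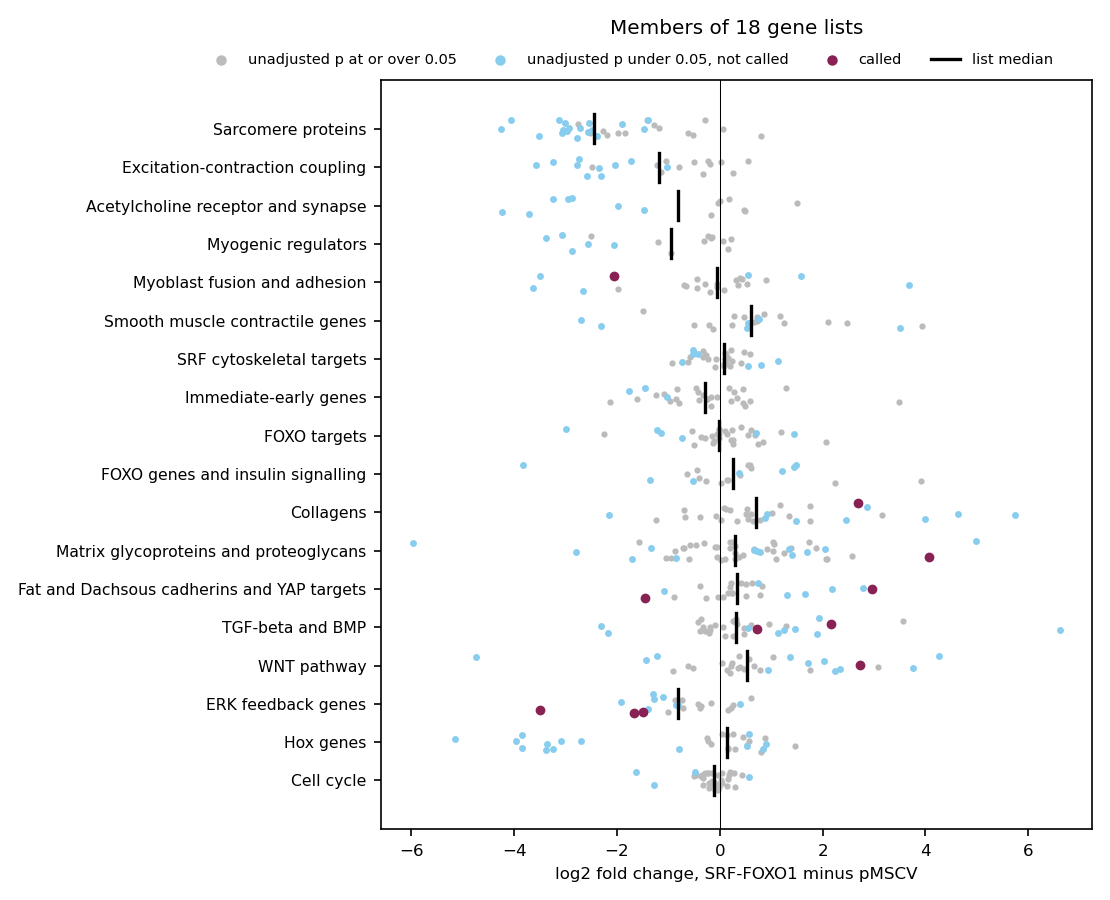
Log2 fold changes (SRF-FOXO1 minus pMSCV) of the members of 18 gene lists, 1 point a gene; black bars are list medians, light blue an unadjusted p under 0.05, dark red a called gene. The sarcomere list has the lowest median (-2.45), and most of its members lie left of 0, while SRF cytoskeletal and FOXO target lists centre near 0.

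Falls among receptors came next. Ackr3, the scavenger receptor that takes up the chemokine CXCL12 (chr1:90203980-90216751), was at 139, 127 and 126 CPM in pMSCV and 10.5, 9.71 and 9.19 CPM in SRF-FOXO1. Libraries within each line were close together, and the gene's log2 level fell by 3.74 (SE 0.68, adjusted p = 0.0336). Erbb3, a receptor for neuregulin (chr10:128567523-128589652), was at 29.3, 9.79 and 14.5 CPM in pMSCV and 1.40, 1.36 and 0.94 CPM in SRF-FOXO1. It fell by 3.86 (SE 0.76, adjusted p = 0.0384). Lrig1, a membrane protein that promotes turnover of ERBB receptors, was at 50.9, 67.6 and 59.4 CPM against 27.4, 29.3 and 22.2 CPM and fell by 1.17 (SE 0.22, adjusted p = 0.0346). Of 14 ERBB receptors and ligands, Erbb3 and Lrig1 were called. Egfr and the ligand Nrg1 had log2 fold changes of 1.01 and 0.92 (adjusted p 0.232 and 0.160).

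In the list of ERK feedback genes, 3 dual-specificity phosphatases were called. Dusp10, which acts on p38 and JNK, was at 139, 204 and 105 CPM in pMSCV and 38.6, 72.4 and 29.0 CPM in SRF-FOXO1, and fell by 1.68 (SE 0.32, adjusted p = 0.0354). Dusp14 was at 36.9, 41.2 and 44.5 CPM against 9.55, 18.8 and 15.2 CPM and fell by 1.49 (SE 0.24, adjusted p = 0.0336). Dusp13, whose locus encodes phosphatases of muscle and testis, was at 12.04, 5.82 and 13.1 CPM against 1.31, 0.80 and 0.62 CPM and fell by 3.49 (SE 0.61, adjusted p = 0.0336). Of 23 ERK feedback genes, these 3 were called, 10 were lower and 1 higher at an unadjusted p under 0.05, and the median was -0.81. With any 1 library left out the median lay between -1.58 (without SRF-FOXO1 replicate 2) and -0.55. Dusp6, a classical marker of ERK activity, overlapped between the lines: 160, 107 and 91.5 CPM against 38.7, 122 and 39.0 CPM (adjusted p = 0.227).

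**Figure D3:**
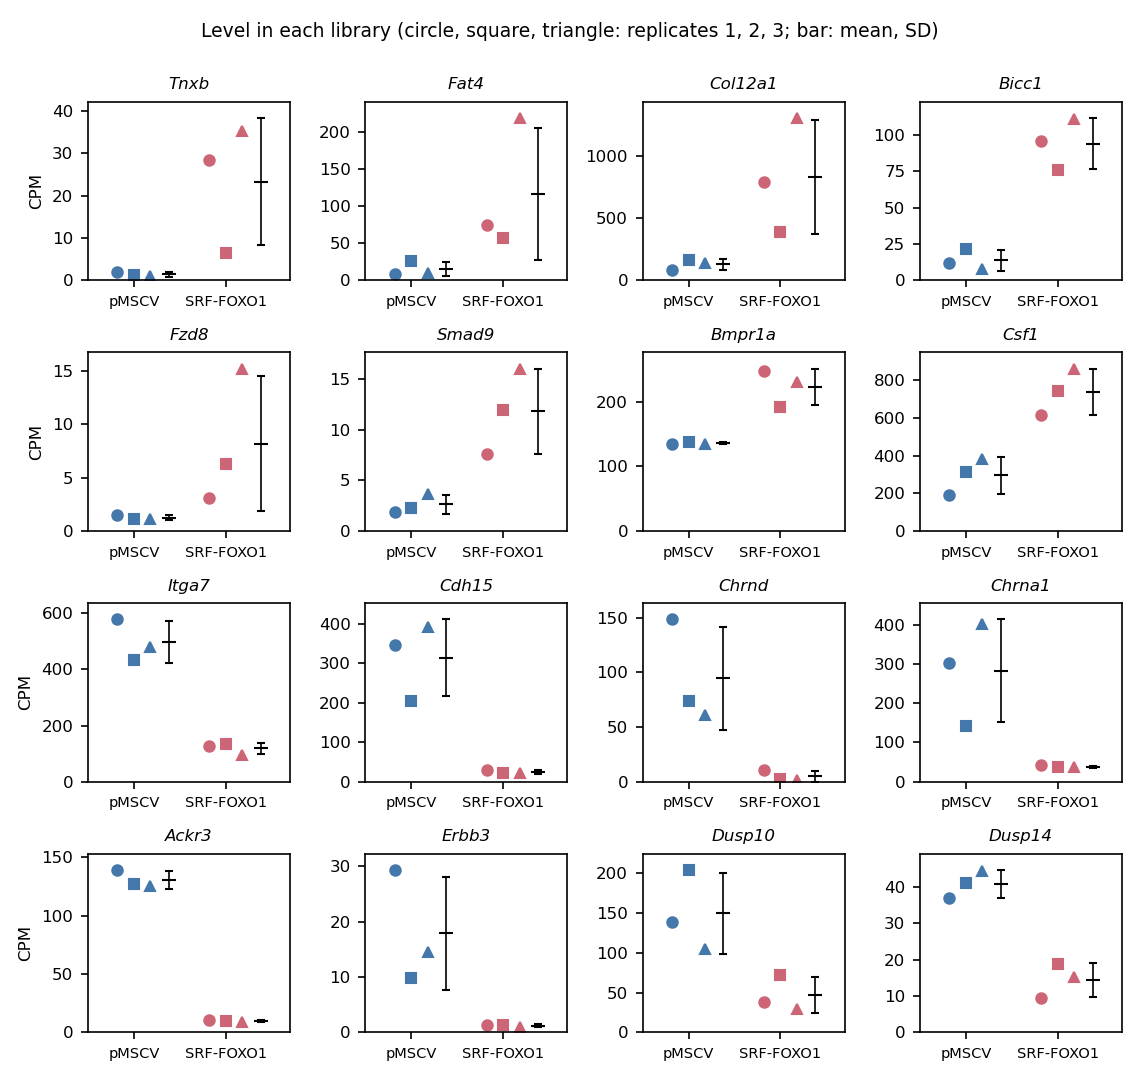
CPM of 16 genes in each library of pMSCV (blue) and SRF-FOXO1 (red), on linear axes from 0, with mean and SD (n = 3) to the right of each group. The groups do not overlap in any panel; Cdh15, Chrnd and Chrna1 were not called, the other 13 genes were.

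The called rises included 2 matrix genes and 1 giant cadherin. Col12a1, a fibril-associated collagen (chr9:79598991-79718831), was at 81.8, 164 and 139 CPM in pMSCV and 792, 387 and 1305 CPM in SRF-FOXO1. Its log2 level rose by 2.69 (SE 0.40, adjusted p = 0.0336), and its lowest SRF-FOXO1 library lay above its highest pMSCV library. Tnxb, tenascin-X, which organises collagen in connective tissue (chr17:34670535-34719815), was at 1.98, 1.15 and 1.03 CPM against 28.4, 6.33 and 35.2 CPM. It rose by 4.07 (SE 0.70, adjusted p = 0.0336), the largest rise among the called genes chosen by level and separation. Fat4, a giant protocadherin of planar polarity and growth control (chr3:38886940-39011985), was at 8.95, 26.1 and 9.67 CPM against 74.4, 56.7 and 219 CPM and rose by 2.97 (SE 0.56, adjusted p = 0.0346).

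The medians of the matrix lists moved with single libraries of both lines. Of 32 collagens, Col12a1 was called, 9 were higher and 1 lower at an unadjusted p under 0.05, and the median was 0.71. Without SRF-FOXO1 replicate 3 that median was -0.00, with 16 genes on each side of 0, without pMSCV replicate 1 it was 0.39, and without pMSCV replicate 2 it was 1.39. Col23a1, a transmembrane collagen, was at 1.003, 1.83 and 42.4 CPM in SRF-FOXO1 replicates 1, 2 and 3 against 0.51 to 1.28 CPM in pMSCV. Decorin (Dcn), a collagen-binding proteoglycan, was at 153, 10.4 and 1622 CPM in SRF-FOXO1 and 24.8, 377 and 25.5 CPM in pMSCV, so that the lines overlapped. Of 50 matrix glycoproteins and proteoglycans, Tnxb was called, with a median of 0.30; leaving out SRF-FOXO1 replicate 3 gave -0.06, and leaving out pMSCV replicate 2 gave 1.04. Hmcn1, hemicentin of basement membranes, ran the other way: 21.3, 7.94 and 8.13 CPM in pMSCV against 0.31, 0.14 and 0.13 CPM in SRF-FOXO1 (log2 fold change -5.96, adjusted p = 0.0519). Steadier and smaller differences were seen for Lamc1, a laminin chain, at 232, 235 and 292 CPM against 389, 427 and 382 CPM (log2 fold change 0.66, adjusted p = 0.0531), and for Fbln5, an elastic fibre protein (1.69, adjusted p = 0.0543). Of 34 matrix proteases and inhibitors, edgeR called none (8 higher and 5 lower at an unadjusted p under 0.05) and DESeq2 called 6 (1363 of all 15062 genes). Their median of 0.41 was -0.19 without SRF-FOXO1 replicate 3, 0.05 without pMSCV replicate 1 and 0.86 without pMSCV replicate 2.

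Of 24 genes for Fat and Dachsous cadherins and YAP targets, Fat4 rose and Tead2 fell. Tead2, a DNA-binding partner of YAP, was at 84.2, 75.6 and 78.8 CPM in pMSCV and 36.8, 37.8 and 12.7 CPM in SRF-FOXO1, a fall of 1.45 (SE 0.30, adjusted p = 0.0483). Crim1, Fjx1, a kinase-like modifier of Fat signalling, and Fat1 had log2 fold changes of 1.66, 2.19 and 1.30 (adjusted p 0.0514, 0.0581 and 0.0926). Ankrd1, a target of YAP and a stress gene of muscle, had -1.09 (adjusted p = 0.176), so the list's members ran both ways around a median of 0.33.

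In the TGF-beta and BMP list, 1 receptor and 1 SMAD of the BMP branch were called, both higher. Bmpr1a, a type I BMP receptor (chr14:34410734-34503341), was at 135, 138 and 135 CPM in pMSCV and 247, 193 and 231 CPM in SRF-FOXO1 and rose by 0.72 (SE 0.13, adjusted p = 0.0336). Smad9, which carries the BMP signal, was at 1.89, 2.29 and 3.69 CPM against 7.54, 11.9 and 15.96 CPM and rose by 2.17 (SE 0.39, adjusted p = 0.0336). Smad6, an inhibitor of that signal, was at 2.72, 6.83 and 4.91 CPM against 12.7, 16.9 and 25.5 CPM, with a log2 fold change of 1.93 (adjusted p = 0.0531). The antagonist Grem1, at 243 to 529 CPM in pMSCV and 846 to 1114 CPM in SRF-FOXO1, had 1.47 (adjusted p = 0.0909). These genes had groups that did not overlap. Whether BMP signalling itself differed was not tested. Of 34 genes of the TGF-beta and BMP list, 9 were higher and 2 lower at an unadjusted p under 0.05, around a median of 0.31 that ran from 0.17 without SRF-FOXO1 replicate 3 to 0.56 without pMSCV replicate 2.

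Fzd8, a WNT receptor, was at 1.52, 1.102 and 1.07 CPM in pMSCV and 3.10, 6.24 and 15.2 CPM in SRF-FOXO1 and rose by 2.72 (SE 0.51, adjusted p = 0.0346). Of 30 WNT pathway genes it alone was called, and 9 were higher and 3 lower at an unadjusted p under 0.05, with a median of 0.53 that ran from 0.30 to 0.83 with the same libraries left out. The receptors Fzd1 and Fzd7 had log2 fold changes of 1.37 and 0.93 (adjusted p 0.0539 and 0.0660), and the ligand Wnt4 2.34 (adjusted p = 0.0531). The ligand Wnt7b, at 29.6, 5.73 and 14.1 CPM in pMSCV and 1.44, 0.28 and 0.09 CPM in SRF-FOXO1, had -4.75 (adjusted p = 0.0531). The secreted inhibitor Sfrp1 was at 1.003 and 1.55 CPM in SRF-FOXO1 replicates 1 and 2 and at 31.0 CPM in replicate 3, as for several matrix genes.

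Csf1, the growth factor of macrophages, rose in SRF-FOXO1: 190, 314 and 384 CPM in pMSCV against 615, 746 and 860 CPM in SRF-FOXO1, a rise of 1.32 (SE 0.27, adjusted p = 0.0426). Of 30 chemokines and cytokines, Csf1 and Ackr3 were called in opposite directions, and Il34, the other ligand of the CSF1 receptor, had a log2 fold change of -1.49 (adjusted p = 0.0568). Among 13 PDGF and related ligands and receptors, 4 were higher and 2 lower at an unadjusted p under 0.05, and none was called by edgeR. DESeq2 and the replicate block over 17 libraries, which called 1363 and 1021 of all 15062 genes, each called 2 higher and 2 lower. Vegfd was at 17.4, 42.2 and 15.1 CPM against 128, 69.8 and 100 CPM (log2 fold change 1.99, adjusted p = 0.0501), and the stem cell factor Kitl and the receptor Pdgfrb had 1.68 and 1.19 (adjusted p 0.0551 and 0.133). The ligands Pdgfd and Pdgfc had -3.16 and -1.46 (adjusted p 0.0694 and 0.0867).

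SRF's own target lists were next. CArG boxes of the form CC, 6 bases of A or T, GG were searched on both strands (the form reads the same way on each) in the 250 bases before each RefSeq start (GRCm38.p6). They were found in 1.47% of all 32851 promoters, and in 158 of the 10638 tested genes with a promoter in that table (1.49%). Among called genes with a promoter, 1 of 41 higher genes (Ston1) and 0 of 40 lower genes held one. In the lists, 5 of 24 sarcomere genes and 7 of 26 SRF cytoskeletal targets did. The second list was made of SRF targets, so its share says nothing about the called genes. The windows below are shown because SRF binds this motif. Genes other than Ston1 were chosen after the values were seen, from the sarcomere, cytoskeletal and immediate-early lists. They do not represent those lists. The sarcomere genes Nebl, Myom1 and Ldb3 also held a box and are not shown. Of these, Ldb3 had a positive log2 fold change and the others negative ones. Each is 5′ to 3′ on the gene's strand, with CArG boxes in capitals.
Ston1 (chr17:88626461-88626510, plus strand): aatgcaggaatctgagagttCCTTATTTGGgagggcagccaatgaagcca
Actc1 (chr2:114052893-114052942, minus strand): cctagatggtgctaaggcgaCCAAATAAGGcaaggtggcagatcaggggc
Acta1 (chr8:123894819-123894868, minus strand): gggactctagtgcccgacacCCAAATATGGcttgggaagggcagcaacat
Srf (chr17:46556215-46556264, minus strand): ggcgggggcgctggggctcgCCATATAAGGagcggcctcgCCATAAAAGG
Vcl (chr14:20929151-20929200, plus strand): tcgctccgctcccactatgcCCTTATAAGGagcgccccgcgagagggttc
Fhl2 (chr1:43196828-43196877, minus strand): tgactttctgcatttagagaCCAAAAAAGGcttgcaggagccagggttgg
Zfp36 (chr7:28379257-28379306, minus strand): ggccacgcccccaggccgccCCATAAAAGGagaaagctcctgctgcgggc

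Genes with the same motif had different values. Ston1, an endocytic adaptor, was at 39.2, 38.2 and 51.6 CPM in pMSCV and 106, 75.6 and 100 CPM in SRF-FOXO1 and rose by 1.13 (SE 0.18, adjusted p = 0.0336). The cardiac and skeletal alpha-actins Actc1 and Acta1 had log2 fold changes of -2.78 and -1.29 (adjusted p 0.211 and 0.456). Vinculin (Vcl), of focal adhesions, and Fhl2, a LIM-domain cofactor, had 0.12 and 0.42 (adjusted p 0.778 and 0.380), and Zfp36, which destabilises messenger RNA, 1.29 (adjusted p = 0.637). Of 30 SRF cytoskeletal targets none was called by edgeR, DESeq2 or with a replicate block over 17 libraries, 3 were higher and 4 lower at an unadjusted p under 0.05, and the median was 0.09. That median lay between -0.08 and 0.11 with any 1 library left out. Enah, which lengthens actin filaments, had the list's largest value (1.14, adjusted p = 0.142), and the cytoplasmic actin Actg1 was at 2368, 2277 and 2955 CPM against 2034, 1952 and 1668 CPM (log2 fold change -0.43, adjusted p = 0.188).

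Smooth muscle contractile genes had a median of 0.61 over 22 genes, which was 0.35 without pMSCV replicate 1. By edgeR none was called and 4 were higher and 2 lower at an unadjusted p under 0.05. DESeq2, which called 1363 of all 15062 genes, called 1 in each direction. Lmod1, an actin nucleator of smooth muscle, was at 0.23, 5.25 and 3.18 CPM in pMSCV and 32.2, 29.4 and 37.3 CPM in SRF-FOXO1. Its groups lay far apart and its log2 fold change was 3.51 (SE 0.87, adjusted p = 0.0579). Acta2, smooth muscle alpha-actin, overlapped: 222, 1592 and 2414 CPM in pMSCV and 2186, 2923 and 1883 CPM in SRF-FOXO1 (adjusted p = 0.524). Tagln and Myh11, further markers of the lineage, stayed under 1 CPM in all 6 libraries. Desmin (Des), a filament of all muscle, was at 481, 806 and 728 CPM against 114, 108 and 88.5 CPM (log2 fold change -2.70, adjusted p = 0.0727). Contractile genes of smooth and striated muscle had medians of opposite sign in these libraries.

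Among immediate-early genes, Egr1, a zinc finger factor induced by serum within minutes, was at 520, 1818 and 84.7 CPM in pMSCV and 161, 3252 and 209 CPM in SRF-FOXO1. Fos was at 159, 562 and 1.45 CPM against 5.14, 361 and 4.64 CPM. Replicate 2 was the highest library of both lines for both genes. Of 30 such genes edgeR called none, and DESeq2, which called 1363 of all 15062 genes, called 3, all lower. By edgeR 3 had an unadjusted p under 0.05, all lower: Klf2, Jund and Plk2, with log2 fold changes of -1.77, -1.45 and -1.03. The median of -0.29 was 0.62 without pMSCV replicate 2 and -1.65 without SRF-FOXO1 replicate 2.

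FOXO target genes showed no common direction. The motif GTAAACA or its reverse TGTTTAC was found in the same 250 bases of 3.17% of all promoters and 2.73% of tested genes. It was found in 1 of 41 called higher genes (Dnajc10) and 2 of 40 called lower genes (Vars2 and Dlgap1), whose windows are given with the motif in capitals since they are the called genes that hold it.
Dnajc10 (chr2:80315250-80315296, plus strand): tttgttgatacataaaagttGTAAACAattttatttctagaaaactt
Vars2 (chr17:35667753-35667799, minus strand): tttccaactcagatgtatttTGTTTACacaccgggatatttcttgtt
Dlgap1 (chr17:70561705-70561746, plus strand): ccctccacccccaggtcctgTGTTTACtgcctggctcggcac

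Dnajc10, a chaperone of the endoplasmic reticulum, rose by 0.63 and the mitochondrial valyl-tRNA synthetase Vars2 fell by 0.68. Dlgap1, a scaffold of synapses, fell by 3.12. Of 33 FOXO targets none was called by edgeR and 3 were by DESeq2 (1 higher, 2 lower), which called 1363 of all 15062 genes. At an unadjusted p under 0.05, 2 were higher and 4 lower, and the median was -0.01 (0.24 without pMSCV replicate 2). The atrophy ubiquitin ligases Fbxo32 and Trim63 had log2 fold changes of -0.14 and -0.37 (adjusted p 0.872 and 0.842). Sesn3, a stress sensor, was at 21.3, 19.8 and 27.8 CPM in pMSCV and 66.1, 34.6 and 85.4 CPM in SRF-FOXO1, a log2 fold change of 1.43 (adjusted p = 0.119). Igfbp5, which binds insulin-like growth factors in muscle, ran lower at 1267, 2864 and 1309 CPM against 379, 131 and 178 CPM (-2.98, adjusted p = 0.125). Among 20 FOXO genes and genes of insulin signalling, the PI3-kinase subunits Pik3r1 and Pik3r3 had log2 fold changes of 1.44 and 1.48 (adjusted p 0.109 and 0.106). Igfbp2, at 120 to 402 CPM in pMSCV and 9.24 to 23.5 CPM in SRF-FOXO1, had -3.83 (adjusted p = 0.0736).

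Of 29 Hox genes in the table, 10 were lower and 4 higher at an unadjusted p under 0.05. None was called by edgeR, and DESeq2, which called 1363 of all 15062 genes, called 5, all lower. Of the 10 lower, 8 were of the Hoxb cluster (Hoxb3 to Hoxb9 and Hoxb13), with log2 fold changes from -3.97 to -2.70, and the 4 higher were Hoxa10, Hoxc5, Hoxc6 and Hoxc8, from 0.53 to 0.90. Hoxb9 was at 52.6, 19.7 and 10.1 CPM in pMSCV and 5.14, 0.56 and 0 CPM in SRF-FOXO1. Neighbours in a cluster can share regulation and reads, so these are not independent genes.

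The remaining lists had no member called by edgeR. DESeq2, which called 1363 of all 15062 genes, called 11 of 48 axon guidance genes (4 higher, 7 lower). It called 4 of 28 ATF4, 4 of 12 FGF, 4 of 17 Notch and 4 of 32 interferon-response genes, and at most 3 in each of the others. Glycolysis and hypoxia genes had 8 of 32 lower and 1 higher at an unadjusted p under 0.05 (median -0.21), genes of the ATF4 and unfolded-protein response 6 of 28 lower and 1 higher (median -0.28), and axon guidance genes 9 of 48 lower and 8 higher (median 0.09). Of 28 genes of cholesterol and fatty acid synthesis none had an unadjusted p under 0.05, and their median of 0.39 ran from -0.24 without SRF-FOXO1 replicate 1 (22 lower) to 1.13 without pMSCV replicate 1 (28 higher). Among 12 FGF pathway genes, 4 were lower and 3 higher (median -0.09), with the receptor Fgfr2 at a log2 fold change of 2.97. The marker lists of other cell types had medians of 0.07 (fibroblast and tendon), -0.44 (adipocyte, cartilage and bone), 0.16 (pericyte and vascular) and -0.34 (blood and epithelial). With 1 library left out these ran from -0.10 to 1.26, -0.73 to -0.20, -0.31 to 0.30 and -0.70 to 0.03; the 1.26 is without pMSCV replicate 2. Cell cycle genes had a median of -0.12 over 37 genes, which was -0.45 without pMSCV replicate 2 (34 lower) and 0.21 without pMSCV replicate 3 (29 higher), with E2f2 and Cdk6 at -1.63 and -1.28 (adjusted p 0.102 and 0.148). Interferon-response genes had 4 higher and 4 lower of 32 at an unadjusted p under 0.05. Their median was 0.57, with 21 genes above and 11 below no change. It lay between 0.23 and 0.94 with any 1 library left out. Among the lower, the class I histocompatibility gene H2-K1 had -0.91 (adjusted p = 0.0501). Of 17 Notch pathway genes, 5 were lower and 2 higher, among them the ligand Jag2 (-2.80) and the target Hey1 (-3.75), with adjusted p of 0.0694 and 0.0905. Has1, a hyaluronan synthase among the fibroblast markers, was at 38.5, 59.95 and 55.6 CPM against 7.497, 9.05 and 4.95 CPM (log2 fold change -2.84, adjusted p = 0.0501). The chaperone Hspb1 among the stress genes was at 184, 286 and 282 CPM against 49.7, 86.2 and 26.6 CPM (-2.21, adjusted p = 0.0507). The nuclear RNA Neat1 was at 60.5, 150 and 58.3 CPM in pMSCV and 426, 62.7 and 485 CPM in SRF-FOXO1 (1.86, adjusted p = 0.104). The part of such stress genes in the results was not tested.

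Of the 107 called genes, 92 were in none of the 34 lists. Bicc1, an RNA-binding protein, was at 11.7, 21.5 and 7.90 CPM in pMSCV and 96.1, 75.7 and 111 CPM in SRF-FOXO1 and rose by 2.78 (SE 0.55, adjusted p = 0.0405). Pak3, a kinase that small GTPases activate, rose by 2.50 and Spata13, an exchange factor for such GTPases, rose from 2.63, 5.73 and 5.65 CPM to 12.4, 20.8 and 22.9 CPM. Rab27a, a GTPase of secretory vesicles, rose by 2.63, and Clip4, Foxred2 and Lysmd2 by 1.95, 1.88 and 1.81. Among the falls, Cadm4, a cell adhesion molecule, was at 30.3, 33.3 and 29.3 CPM against 4.27, 3.14 and 1.83 CPM and fell by 3.33 (SE 0.57, adjusted p = 0.0336). Tppp3, which promotes tubulin polymerisation, was at 128, 174 and 90.0 CPM against 15.9, 13.1 and 8.74 CPM and fell by 3.38 (SE 0.72, adjusted p = 0.0483). The orphan nuclear receptor Rorb fell by 2.53, Baiap2l1, which bends membranes at actin protrusions, by 2.51, and Soga3, Rgcc, Fam71f1 and Spsb1 by 2.31, 2.19, 2.19 and 1.99.

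Further called genes were picked once their values were known. Nr3c1, the glucocorticoid receptor, was at 86.7, 111 and 81.1 CPM in pMSCV and 186, 178 and 281 CPM in SRF-FOXO1 and rose by 1.21, and the cytokine receptor kinase Jak2 rose by 1.15. Popdc3, of the Popeye family of striated muscle, was at 161, 169 and 153 CPM against 66.1, 45.3 and 43.2 CPM and fell by 1.64. The kinase Fyn fell by 1.51 and the GTPase Rhob by 1.35. Eef2, translation elongation factor 2, was at 4469, 5324 and 4646 CPM against 3072, 3190 and 3062 CPM, a fall of 0.63, and the ribosomal protein Rps26 fell by 0.77. Ribosomal protein genes have many processed copies, so the count of Rps26 is less certain. Ano3, Gdap1 and the predicted gene Gm16263 had at most 3 counts in every pMSCV library, so no fold is given for them.

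**Figure D4:**
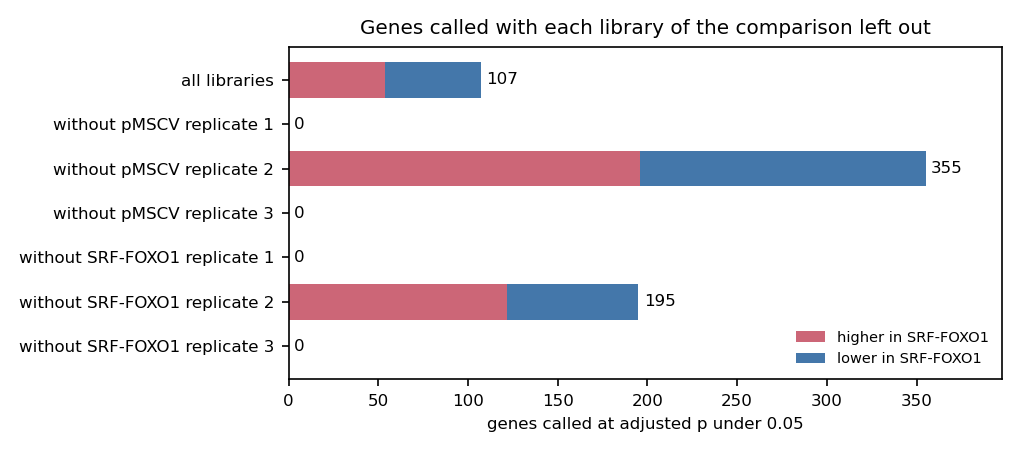
Genes called (adjusted p under 0.05) in SRF-FOXO1 against pMSCV with all libraries and with each of the 6 libraries left out, higher genes in red and lower in blue. The count is 107 with all libraries, 355 without pMSCV replicate 2, 195 without SRF-FOXO1 replicate 2 and 0 in the other 4 fits.

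The other lines place these levels, in comparisons that share the SRF-FOXO1 libraries and so are not independent. Against the line with SRF itself, 1 gene was called (0.00664%): Srf, which was lower in SRF-FOXO1 than in that line. An unadjusted p under 0.05 was reached by 2895 genes (19.2%). None of the 107 genes was called there (smallest adjusted p 0.0909), and 102 of them had an unadjusted p under 0.05. Against the mean of SRF-ICA1L and SRF-RELA, 0 genes (0%) were called by edgeR, with 1057 at an unadjusted p under 0.05 (7.02%), and DESeq2 called 1. Of the 107 genes, 72 had an unadjusted p under 0.05 in that comparison, the smallest adjusted p being 0.672. For none of these genes is the level in SRF-FOXO1 shown to differ from that in SRF-ICA1L and SRF-RELA.

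Ackr3 was at 131 ± 7.397 CPM in pMSCV, 73.8 ± 3.18 in SRF, 42.7 ± 18 in SRF-ICA1L, 39.4 ± 20.5 in SRF-RELA and 9.79 ± 0.64 in SRF-FOXO1 (mean ± SD, n = 3 each). Its log2 fold changes in SRF-FOXO1 were -2.91 against SRF (SE 0.68) and -2.07 against the mean of both other fusions, with adjusted p of 0.175 and 0.672. Itga7 ran from 498 ± 74.0 in pMSCV through 258 ± 48.2 in SRF, 211 ± 71.2 in SRF-ICA1L and 180 ± 22.5 in SRF-RELA to 119 ± 20.7 CPM in SRF-FOXO1. Fat4 was at 14.9 ± 9.72 CPM in pMSCV, 20.7 ± 2.69 in SRF, 43.8 ± 6.67 in SRF-ICA1L, 53.1 ± 23.0 in SRF-RELA and 117 ± 88.9 in SRF-FOXO1. For all 3 genes SRF-FOXO1 held the extreme mean of the 5 lines with 3 libraries, with SRF-ICA1L and SRF-RELA between it and pMSCV. The genes were chosen for their distance between SRF-FOXO1 and pMSCV, so this order is partly built in. Tnxb was at 1.39 ± 0.52 CPM in pMSCV, 1.11 ± 0.43 in SRF, 4.50 ± 2.95 in SRF-ICA1L, 6.20 ± 2.85 in SRF-RELA and 23.3 ± 15.1 in SRF-FOXO1, and the SRF-FOXO1 range overlapped both other fusions.

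Medians of the sarcomere and acetylcholine receptor lists were less negative against SRF than against pMSCV. Those of the other muscle lists are not given here. Sarcomere genes had a median of -0.32 against SRF and -0.39 against the mean of SRF-ICA1L and SRF-RELA, compared with -2.45 against pMSCV. Acetylcholine receptor and synapse genes had -0.49 and -0.35 (-0.82 against pMSCV), and ERK feedback genes -0.66 and -0.43 (-0.81 against pMSCV). Some receptor and synapse genes stayed far from the list's median against SRF, lower for Chrnd (-2.41) and Chrnb1 (-2.25) and higher for Ache (2.99). Collagens had 0.98 and 0.71 in these comparisons and 0.71 against pMSCV, and FOXO targets 0.27 and 0.16. Whether these medians differ between comparisons was not tested.

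**Figure D5:**
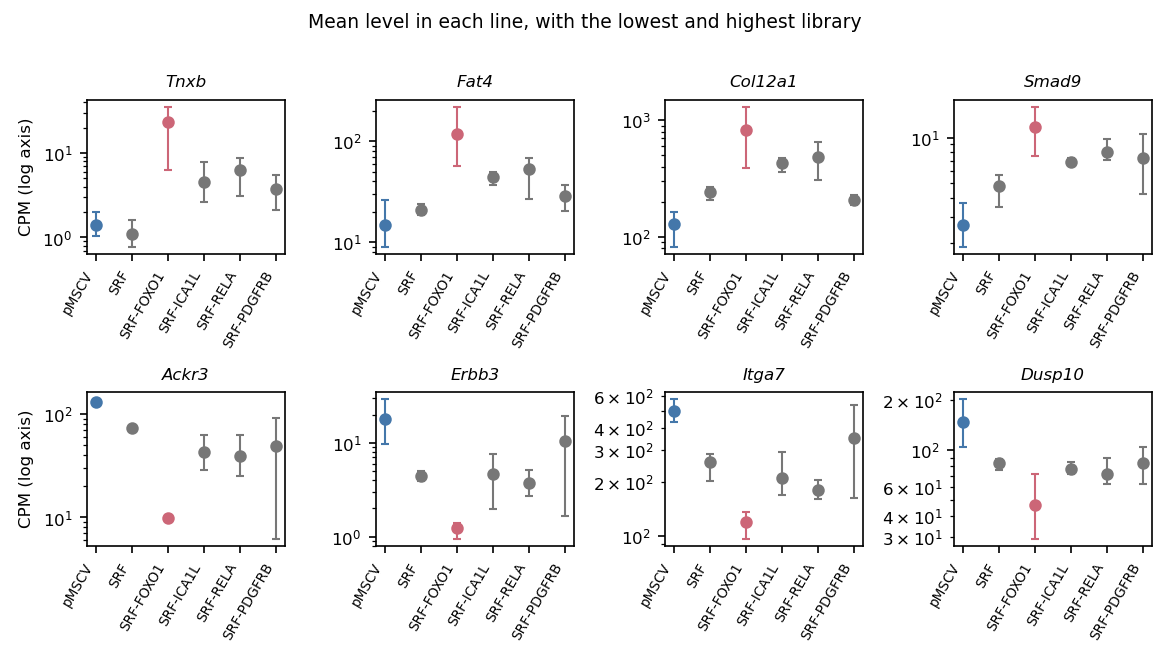
Mean CPM (log axes) of 8 called genes in the 6 lines, with bars from the lowest to the highest library (3 a line, 2 for SRF-PDGFRB). SRF-FOXO1 (red) has the highest mean of Tnxb, Fat4, Col12a1 and Smad9 and the lowest of Ackr3, Erbb3, Itga7 and Dusp10, with the means of SRF-ICA1L and SRF-RELA between it and pMSCV (blue). The genes were called for the difference between SRF-FOXO1 and pMSCV, which favours this order.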

How the data were processed

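RNA from C2C12 lines was sequenced from libraries made with a stranded poly(A) kit, per the labels' protocols. The values are raw counts per gene that the authors deposited in 1 table; per the submitters' processing notes, reads were handled with FastQC 0.11.8, Trimmomatic 0.39, HISAT2 and featureCounts (Subread 2.0.0) on GRCm38. Annotation and strand setting are not given in the sources used here, so reads of overlapping or near-identical genes may be split in unknown ways. Every gene in the table reaches 10 counts in at least 3 libraries. Of 1531 genes without a symbol, 1519 received one by gene identifier. Gene coordinates are from GENCODE vM21 (GRCm38).

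All 17 libraries entered 1 edgeR 4.0.16 quasi-likelihood fit (limma 3.58.1, R 4.3.3; TMM scaling, robust dispersions, a term for line, no replicate term), which shares the estimate of spread (biological coefficient of variation 36.5%). P-values were adjusted by Benjamini-Hochberg over 15062 genes and genes called under 0.05; SE is the log2 fold change over the square root of F. The fit was tested on simulated counts. Named genes are Srf, the FOXO genes, the 12 largest rises and 12 largest falls among called genes with symbols, groups apart and no library of the higher line under 50 counts, called list members, and, of lists with none, up to 2 members by p and 2 by level; further genes were chosen after their values were seen. The members and the 34 lists were chosen with earlier results of these data known. Same-numbered libraries of SRF-FOXO1 and SRF deviated together (correlations 0.22, 0.25 and 0.33), those of SRF-FOXO1 and pMSCV did not. For replicates 1, 2 and 3 the correlations were 0.07, 0.10 and 0.50 with SRF-ICA1L and 0.12, -0.01 and 0.45 with SRF-RELA. SRF-FOXO1 replicate 2 also correlated with replicate 1 of SRF-ICA1L (0.34) and SRF-RELA (0.42). Alternatives were DESeq2 1.42.0, other scalings and filters, fits on fewer libraries and a replicate block.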

Additional observations from a re-analysis of the deposited data

How the results depend on the processing

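The number of genes called in SRF-FOXO1 against pMSCV (107) was 178 with DESeq2's size factors in edgeR, 1363 with DESeq2, 255 over genes of at least 1 CPM in 3 libraries, 32 with the 6 libraries alone (4 higher, 28 lower), and between 0 and 355 with 1 library left out. With a replicate block it was 1021 over 17 libraries and 0 over the 6 libraries, where 1830 genes had an unadjusted p under 0.05; the labels do not say that numbers mark a shared culture, and same-numbered libraries of these lines correlated at 0.17, -0.20 and 0.01. Against SRF, the 1 called gene became 597 with DESeq2 and between 1 and 14 with 1 library left out; against the mean of SRF-ICA1L and SRF-RELA, the 0 became 1 with DESeq2. With a replicate block in the 6 libraries the log2 fold change of Fbxo32 turned from -0.14 to 0.026. Leaving out 1 library turned the sign of these uncalled genes, over the ranges given: Srf -0.0605 to 0.22, Foxo3 -0.0636 to 0.54, Fbxo32 -0.42 to 0.49, Trim63 -0.75 to 0.13, Tmod4 -0.13 to 0.43, Zfp36 -0.93 to 2.07, Egr1 -2.13 to 1.99, Fos -5.62 to 0.62 and Dcn -0.80 to 4.56. All 107 called genes kept their direction in every fit that tested them, which their non-overlapping groups make nearly certain. The replicate block changed no call against SRF. The cause of these differences was not tested.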
